A study of Mus musculus with 2 samples.

Results

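The genes described here are 41 mouse genes known from the germ line, which were taken by name from the count tables and make up 41 of the 43629 genes counted. All 41 had a row. They were read in 5 groups by role: 16 genes of the piRNA pathway, 10 of the meiotic chromosome axis and synaptonemal complex, 3 of meiotic recombination, 8 germ cell regulators, and 4 testis paralogs of housekeeping genes or surface proteins.

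The cells were mouse embryonic stem (ES) cells with a Dgcr8 knockout, made by paired CRISPR/Cas9 cutting on a 129/Ola background and taken at passage 7; the labels name the blastocyst as their tissue. The DGCR8 protein binds primary microRNA transcripts in the nucleus and positions DROSHA to cut them. Polyadenylated RNA was counted in 2 libraries of this 1 group, A and B. The titles carry the codes KO2 and d5, which the labels do not explain, so whether the cells are 1 clone is not known here. No wild-type library was analysed here, so every value is a level in knockout cells and none is a change caused by the knockout. The labels do not state that A and B were grown apart, and what separates them may be technical.

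Germ cells guard their genome from transposons with piRNAs, small RNAs that are made without DGCR8 and are bound by PIWI proteins. In meiosis, homologous chromosomes are organised along a protein axis by meiotic cohesins, joined by the synaptonemal complex, and recombined after programmed DNA breaks. Many of these genes have promoters rich in CpG that carry DNA methylation in somatic tissues, and in ES cells a Polycomb complex named PRC1.6, which holds MGA, MAX and E2F6, is known to bind a set of them at E-box and E2F-type sequences.

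Library A held 27872396 counts and library B 30327146. Levels are given as CPM, the count of a gene per 1000000 counts of its library, and a gene at 1 CPM or more in A and in B alike is called detected here. Dgcr8 itself had 44.95 CPM in A and 64.0 CPM in B, which does not check the genotype, since a count per gene does not tell which exons remain. All 5 ES cell markers looked at (Pou5f1, Nanog, Sox2, Zfp42 and Esrrb) were detected, with summed levels of 4156 CPM in A and 3599 CPM in B. Of 7 haploid spermatid markers none was detected, and Prm1, Prm2, Tnp1, Tnp2 and Acrv1 had 0 counts in both. Of 7 oocyte markers only Zp3 was detected, at 12.6 CPM in A and 16.4 CPM in B, while Zp2, Nlrp5 and Oosp1 had 0 counts in both. Of the 7 Sertoli and Leydig cell markers 3 were detected, Rhox5 at 156 and 78.7 CPM, Wt1 at 5.81 and 10.9 CPM and Star at 1.26 and 1.55 CPM, and the list summed to 164 CPM in A and 91.9 CPM in B. Of 5 fibroblast markers Thy1, Pdgfrb and Col1a1 were detected, none of the 5 was at 0 in both, and the list summed to 45.1 CPM in A and 27.1 CPM in B. Of 5 mast and blood cell markers only Gata1 was detected, at 2.51 and 2.34 CPM, and Cpa3 and Mcpt4 had 0 counts in both. In these bulk libraries, more cells with a transcript and more transcript per cell cannot be told apart.

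Most of the 41 genes gave a measurable transcript. Detected were 34 of 41, which is 82.9%, beside 55.6% of the 21551 protein-coding genes and 30.6% of all genes. At 10 CPM or more in both stood 18 of 41, beside 39.1% of protein-coding genes. The median of the 41 genes was 7.25 CPM, with 6.46 in A and 8.05 in B, and the median over all protein-coding genes was 3.63 CPM. Per length of transcript (RPKM, reads per kilobase of the longest annotated transcript and per 1000000 counts), their median was 2.95, beside 1.21 over all protein-coding genes. Over all detected genes the median was 8.64 RPKM, and 11 germline genes lay above it: Rpl10l, Stra8, Syce2, Sycp3, Kit, Mael, Rec8, Tdrd12, Syce1, Stag3 and Nanos3. Tdrd6, Asz1, Henmt1, Spo11 and Nanos2 were under 1 CPM in both libraries, and Piwil1 and Tdrd9 reached 1 CPM in A alone. The plot of CPM per library shows this span within each group.

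**Figure D1:**
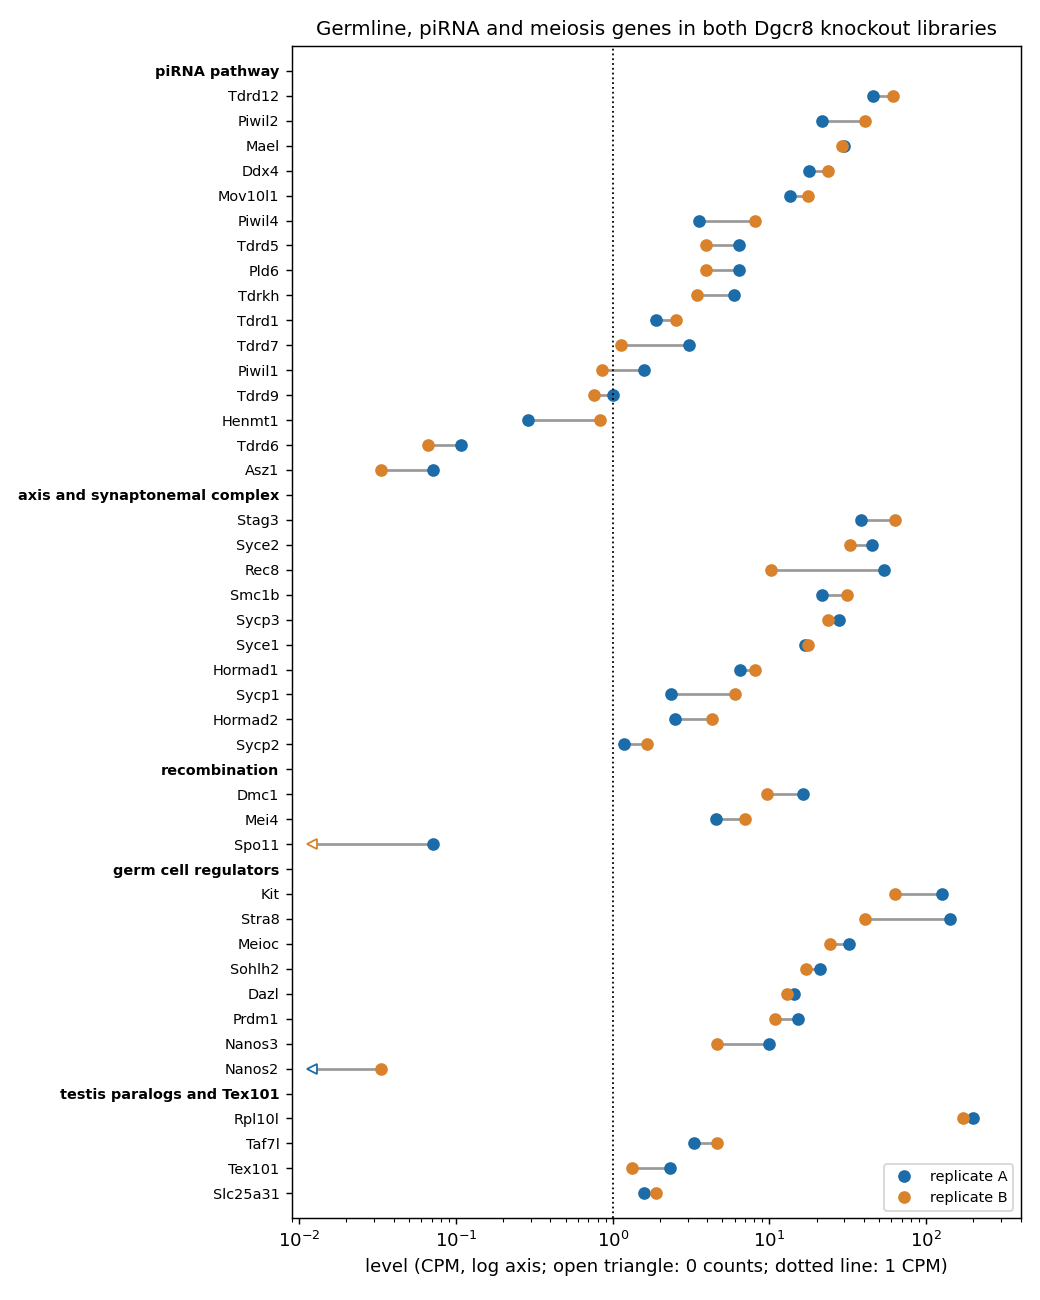
Level of each of the 41 genes in CPM on a log axis, by group, with 1 point for library A and 1 for library B. The axis and synaptonemal complex group has every gene above 1 CPM in both libraries, while the piRNA group runs from Tdrd12 at 45.9 and 61.3 CPM down to Asz1, at 2 and 1 counts.

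In RPKM, Rpl10l stood first with 195 in A and 169 in B. Stra8 followed with 78.4 and 22.6 RPKM, then Syce2 with a mean of 23.0, Sycp3 with 22.0, Kit with 18.1 and Mael with 17.4 RPKM. Rpl10l lay apart from Stra8 in both libraries. Of the 40 neighbouring pairs in the order by mean RPKM, 36 had ranges over A and B that overlapped, which leaves their order uncertain. Some of them still kept it within each library, as Stra8 did over Syce2 (26.6 RPKM in A and 19.3 in B). Others turned, as Syce2 and Sycp3 did (Sycp3 had 23.8 RPKM in A and 20.2 in B). The 4 pairs that lay apart were Rpl10l and Stra8, Tdrd12 and Syce1, Dazl and Mov10l1, and Tdrd9 and Asz1.

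The libraries were also compared gene by gene, as a measure of how far 2 libraries of this 1 group differ. By a binomial test, exact and two-sided, with Benjamini-Hochberg adjustment over 14583 genes, 76.8% of all genes tested were called at an adjusted p under 0.05. Of the germline genes 36 were tested and 28 were called, which is 77.8%, so their share lies near that of all genes. Of these, 12 were higher in B (33.3% of those tested) and 16 higher in A (44.4%), where 38.4% of all genes tested were called in each direction. Piwil1 and Tdrd9 entered the test through library A alone, and Piwil1 is 1 of the 16. A 2-fold difference was reached by 5 of the 36, which is 13.9%, the same share as the 13.9% of all genes. Those higher in B were 2, Piwil4 and Sycp1, beside 6.57% of all genes, and those higher in A were 3, Tdrd7, Rec8 and Stra8, beside 7.37%. Here B over A is a ratio of levels on a scale of log2(CPM + 0.5), after TMM scaling of the library sizes. Folds are ratios of scaled counts with exact 95% intervals. These cover the counting error of reads only, and no spread between cultures or preparations. Reads carried no molecular identifiers, so reads copied from the same molecule were counted as separate. The ratios of all tested genes followed GC content, with a median log2 ratio of 0.53 in the lowest of 10 GC classes of about equal size and -0.57 in the highest. Values with the median of the gene's GC class removed (GC-centred values) are therefore given for the germline genes where they matter. They are not given for genes of the other lists. Of the 36 genes 17 had a log2 ratio above 0, and 13 did after centring. After centring 7 of the 36 were called higher in B (19.4%, beside 37.1% of all genes tested) and 17 higher in A (47.2%, beside 35.6%).

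**Figure D2:**
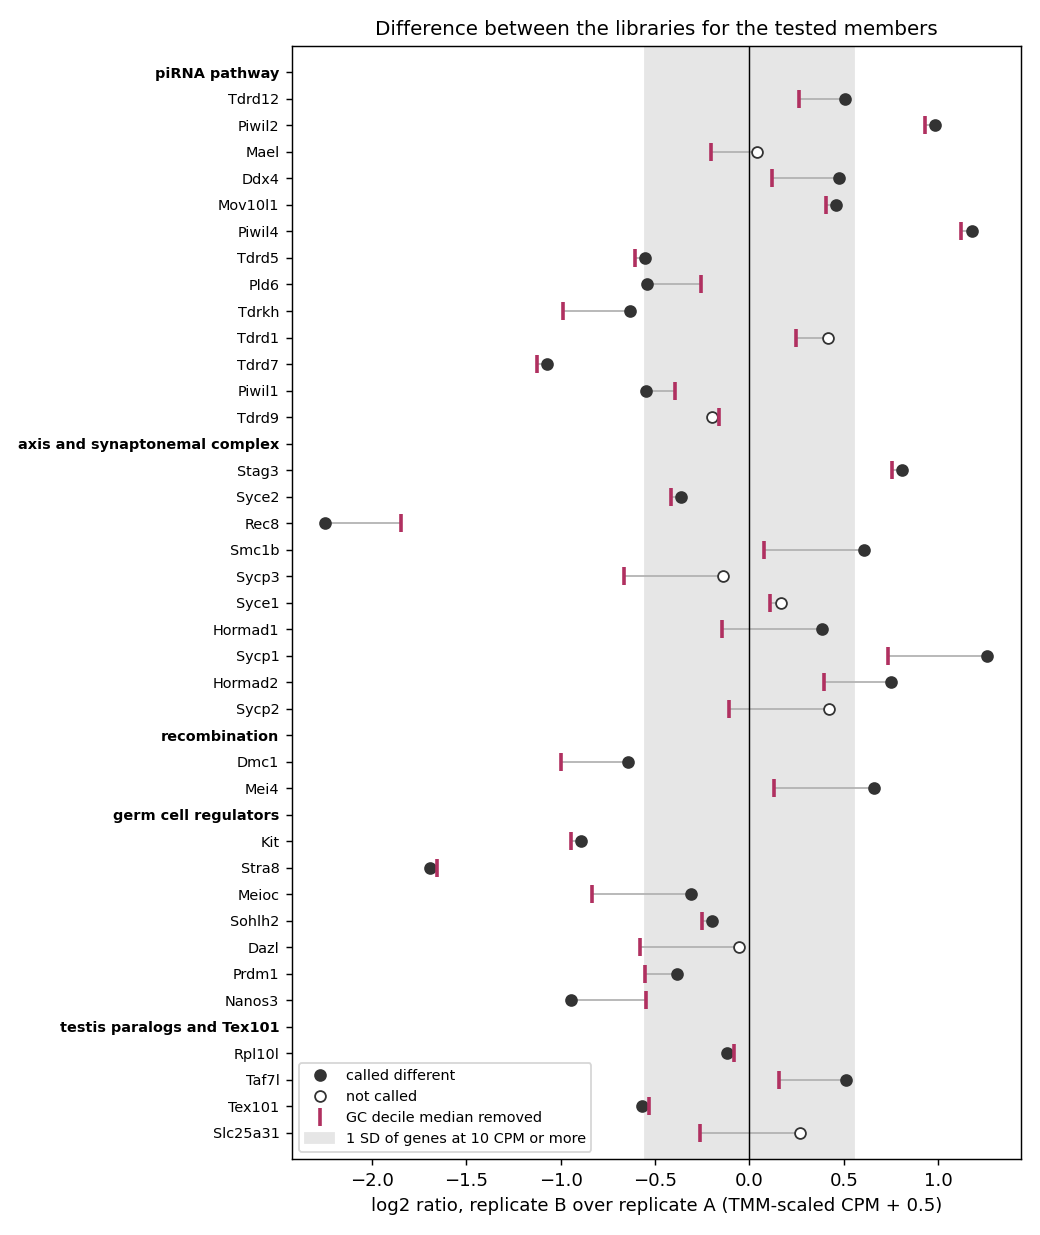
Log2 ratio of library B over library A for the 36 tested genes by group (circles, filled where called different), with the GC-centred value as a bar and a grey band of 1 SD (0.55) of the log2 ratios of all genes at 10 CPM or more in A and B. The 7 tested germ cell regulators lie below 0 in either version, and Rec8 at -2.25 and Stra8 at -1.69 lie farthest from 0.

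Sequence near the start sites was read for 38 of the 41 genes, in windows of 250 bases before to 50 bases after the start site from the RefSeq promoter table on GRCm38.p6, with 1 window per gene. No window was matched for Tdrd6, Spo11 and Piwil2. The windows shown are those of the gene with the highest mean CPM in the piRNA, axis and regulator groups (Tdrd12, Stag3 and Kit, while per length Mael, Syce2 and Stra8 came first), those of a gene under 1 CPM (Asz1, Nanos2), and those of the 4 genes whose window holds both an E-box and an E2F-type match (Ddx4, Mael, Hormad1, Slc25a31); these 4 were chosen after the matches were seen. Each is written 5′ to 3′ on the strand of its gene, with matches on either strand in capitals: CACGTG is the E-box, GGCGGGA or its reverse complement TCCCGCC the E2F-type sequence, and CNCCTCAG or CTGAGGNG a sequence of the type that the meiotic regulator STRA8 is known to bind. The Tdrd12 window (chr7:35537695-35537994, minus strand), the Asz1 window (chr6:18109012-18109311, minus strand) and the Stag3 window (chr5:138280259-138280558, plus strand) come first. The windows of Kit (chr5:75574737-75575036, plus strand) and Nanos2 (chr7:18987274-18987573, plus strand) follow. The last 4 are those of Ddx4 (chr13:112652261-112652560, minus strand), Mael (chr1:166238695-166238994, minus strand), Hormad1 (chr3:95559427-95559726, plus strand) and Slc25a31 (chr3:40708621-40708920, plus strand).
Tdrd12: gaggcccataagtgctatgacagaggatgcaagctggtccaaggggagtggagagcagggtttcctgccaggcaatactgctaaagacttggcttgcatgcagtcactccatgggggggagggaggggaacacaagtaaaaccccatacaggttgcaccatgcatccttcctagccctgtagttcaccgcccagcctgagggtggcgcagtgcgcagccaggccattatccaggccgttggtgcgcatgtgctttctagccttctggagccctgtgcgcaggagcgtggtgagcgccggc
Asz1: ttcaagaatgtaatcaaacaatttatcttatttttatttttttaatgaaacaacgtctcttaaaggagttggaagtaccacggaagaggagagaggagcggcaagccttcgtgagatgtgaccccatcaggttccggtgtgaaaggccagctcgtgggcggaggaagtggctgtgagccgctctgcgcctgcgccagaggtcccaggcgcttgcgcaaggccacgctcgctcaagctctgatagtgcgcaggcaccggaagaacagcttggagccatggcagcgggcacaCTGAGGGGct
Stag3: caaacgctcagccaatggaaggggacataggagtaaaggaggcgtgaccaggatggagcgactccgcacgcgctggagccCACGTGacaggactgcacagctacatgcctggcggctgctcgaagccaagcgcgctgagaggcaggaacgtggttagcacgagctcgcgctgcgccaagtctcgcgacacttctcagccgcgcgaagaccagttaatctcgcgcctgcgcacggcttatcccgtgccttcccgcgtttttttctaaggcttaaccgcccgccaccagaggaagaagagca
Kit: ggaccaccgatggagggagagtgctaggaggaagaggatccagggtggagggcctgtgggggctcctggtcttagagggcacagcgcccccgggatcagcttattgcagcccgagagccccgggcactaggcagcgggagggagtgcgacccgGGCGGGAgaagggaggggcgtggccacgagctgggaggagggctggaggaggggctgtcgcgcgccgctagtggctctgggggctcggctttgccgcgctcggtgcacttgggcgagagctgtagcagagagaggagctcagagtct
Nanos2: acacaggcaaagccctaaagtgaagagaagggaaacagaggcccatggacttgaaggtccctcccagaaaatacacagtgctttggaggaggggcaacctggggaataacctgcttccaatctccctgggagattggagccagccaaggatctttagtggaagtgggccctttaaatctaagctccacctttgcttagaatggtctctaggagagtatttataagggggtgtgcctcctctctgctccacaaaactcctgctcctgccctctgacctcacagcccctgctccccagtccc
Ddx4: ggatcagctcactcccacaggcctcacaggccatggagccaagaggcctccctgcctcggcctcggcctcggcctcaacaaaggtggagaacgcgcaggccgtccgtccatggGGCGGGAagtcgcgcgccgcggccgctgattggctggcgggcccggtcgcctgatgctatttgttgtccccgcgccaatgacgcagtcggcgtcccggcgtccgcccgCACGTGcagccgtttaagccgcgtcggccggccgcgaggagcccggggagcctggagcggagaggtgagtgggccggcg
Mael: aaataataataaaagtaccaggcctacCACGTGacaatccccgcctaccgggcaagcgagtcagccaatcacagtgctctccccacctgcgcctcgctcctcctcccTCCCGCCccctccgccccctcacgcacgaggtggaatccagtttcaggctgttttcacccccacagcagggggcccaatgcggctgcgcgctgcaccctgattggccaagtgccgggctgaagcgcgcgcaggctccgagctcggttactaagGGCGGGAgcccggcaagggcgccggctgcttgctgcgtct
Hormad1: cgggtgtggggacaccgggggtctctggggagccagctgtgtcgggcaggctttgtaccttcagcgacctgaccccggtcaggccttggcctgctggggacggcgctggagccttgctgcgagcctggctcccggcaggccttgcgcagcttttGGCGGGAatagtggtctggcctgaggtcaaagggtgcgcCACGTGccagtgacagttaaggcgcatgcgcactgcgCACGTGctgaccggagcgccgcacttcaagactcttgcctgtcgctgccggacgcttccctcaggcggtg
Slc25a31: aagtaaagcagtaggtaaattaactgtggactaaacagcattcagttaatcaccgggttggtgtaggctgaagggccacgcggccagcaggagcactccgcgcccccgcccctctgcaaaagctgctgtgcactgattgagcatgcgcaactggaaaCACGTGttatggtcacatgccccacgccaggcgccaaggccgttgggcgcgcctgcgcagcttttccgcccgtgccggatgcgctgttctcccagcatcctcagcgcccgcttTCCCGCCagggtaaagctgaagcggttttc

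The window of Tdrd12 held no match to the 3 sequences and 9 CpG, and that of Nanos2 held no match and 0 CpG. The Stag3 window held 30 CpG and an E-box 170 bases before the start site. The Kit window had its E2F-type match 97 bases before the start site, and the Asz1 window a STRA8-type match 40 bases after it. In the Ddx4 window an E-box lay 29 bases and an E2F-type match 137 bases before the start site, among 38 CpG. Hormad1 had E-boxes 57 and 20 bases before its start site and an E2F-type match 96 bases before it. Mael had an E-box 223 bases before its start site and E2F-type matches 143 bases before and 10 bases after it, and Slc25a31 an E-box 93 bases before and an E2F-type match 20 bases after.

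Over all 38 windows, the E-box was found in 13, which is 34.2%, beside 8.13% of 16316 protein-coding promoters and 10.5% of those of detected genes. They belonged to 7 of 14 piRNA genes (Ddx4, Mael, Piwil1, Tdrd1, Tdrd9, Mov10l1, Pld6), 4 of 10 axis genes (Sycp1, Sycp3, Hormad1, Stag3) and 2 of 4 testis paralogs and surface proteins (Taf7l, Slc25a31). None of the 8 regulators and neither of the 2 recombination genes with a window, Dmc1 and Mei4, held one. The E2F-type sequence was found in 5 of 38 windows (13.2%), beside 15.6% of protein-coding promoters and 22.2% of those of detected genes. The STRA8-type sequence was found in 7 of 38 (18.4%, beside 8.81%): those of Tdrd7, Asz1, Mov10l1, Sycp1, Hormad2, Dazl and Sohlh2. A match is a string of letters in the window and not a measured site, and no binding was measured here. Genes with an E-box in the window ran from Tdrd9 at 1.00 and 0.758 CPM to Stag3 at 38.2 and 63.1 CPM.

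**Figure D3:**
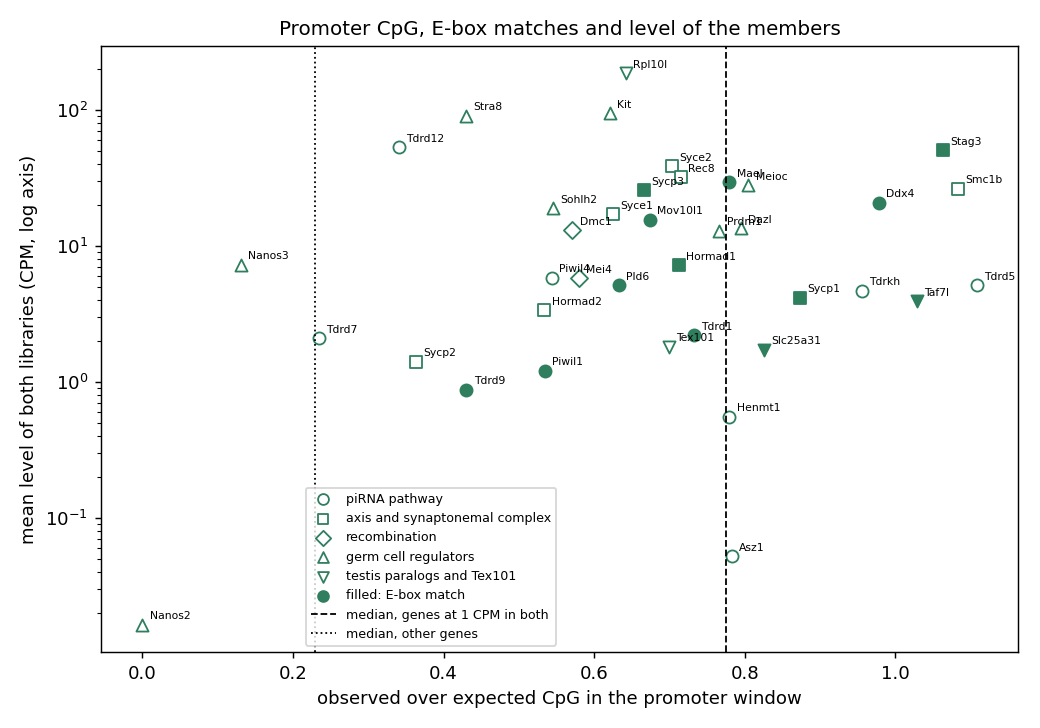
Observed over expected CpG in the 300-base promoter window (x axis) and mean CPM of both libraries (y axis, log) for the 38 genes with a window, filled where the window holds an E-box, with lines at the medians of detected (0.775) and other (0.229) protein-coding genes. Nanos2 with 0 and Nanos3 with 0.131 are lowest, while Tdrd5, Smc1b and Stag3 lie between 1.06 and 1.11.

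The median observed over expected CpG of the 38 windows was 0.687, between 0.606 for all protein-coding promoters and 0.775 for those of detected genes. Protein-coding genes that were not detected had a median of 0.229. Nanos2 with 0, Nanos3 with 0.131, Tdrd7 with 0.234 and Tdrd12 with 0.341 had the lowest values. Tdrd12 and Tdrd7 were detected all the same, as was Nanos3. For Piwil1, Prdm1, Nanos3, Tex101, Meioc, Stra8 and Henmt1 the RefSeq start site lies far from the 5′ end of the GENCODE gene, so their windows may not be those used in these cells. For Stag3 and Tdrd5 it lies 269 and 316 bases from that end, with the whole window inside the GENCODE gene.

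Among the piRNA genes, 11 of 16 were detected and 5 stood at 10 CPM or more. Tdrd12 (chr7:35469098-35537745, minus strand, GRCm38), a Tudor-domain helicase-like protein of piRNA production, had 45.9 CPM in A and 61.3 CPM in B, a mean of 53.6 ± 10.9 (SD, n = 2). It had the most counts of the piRNA genes, while per length Mael came first, with 17.7 and 17.1 RPKM against 12.6 and 16.8 RPKM for Tdrd12. Piwil2, which encodes the PIWI protein MILI that binds primary piRNAs, had 21.5 CPM in A and 40.4 CPM in B, 2.003-fold (95% interval 1.82 to 2.21) more in B. Mael, a factor needed for transposon silencing in the male germ line, had 30.0 and 28.9 CPM and was not called, but was called higher in A after GC centring (exact binomial test, Benjamini-Hochberg adjusted p = 0.00655). Ddx4, the Vasa RNA helicase of germ granules, had 18.0 and 23.6 CPM, and Mov10l1, the helicase that takes piRNA precursors to processing, had 13.6 and 17.7 CPM. Both were called higher in B, and after GC centring the log2 ratio of Ddx4 went from 0.48 to 0.12 and was no longer called (exact binomial test, Benjamini-Hochberg adjusted p = 0.149).

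Of the other PIWI genes, Piwil4, which encodes the nuclear PIWI protein MIWI2, had 3.55 CPM in A and 8.14 CPM in B. It was 2.45-fold higher in B (1.93 to 3.12; exact binomial test, Benjamini-Hochberg adjusted p = 1.2e-14), and 9.03% of all tested genes had as large a ratio. Piwil1, which encodes MIWI of round spermatids and pachytene cells, had 44 counts in A and 26 in B, 1.58 and 0.857 CPM. Per length, the mean level of Piwil2 was 6.30 RPKM, that of Piwil4 1.77 RPKM and that of Piwil1 0.303 RPKM. Piwil2 and Piwil4 were thus both higher in B. Piwil1 passed the filter on low counts through A alone, where it is higher, so its call gives no direction.

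The other Tudor-domain genes among the 41, whose products bind methylated arginines of PIWI proteins, were all under 10 CPM in either library. Tdrd5 had 6.42 and 3.96 CPM, Tdrkh, the mitochondrial partner of PIWI proteins during trimming, 5.96 and 3.43 CPM, and Tdrd7 3.09 and 1.12 CPM. All of these 3 were called higher in A, and Tdrd7 by 2.58-fold (1.72 to 3.96). Tdrd1, a scaffold of the germ granule between mitochondria, had 1.90 and 2.54 CPM and was not called. Tdrd9, a helicase that works with MIWI2, had 28 and 23 counts and was not called either. Tdrd6, known from spermatids, had 3 counts in A and 2 in B, at or under the floor of 3 counts, and no fold is given. Of the bases in exons of Tdrkh, 36.7% overlap the opposite-strand gene Oaz3, which had 0 and 1 counts.

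Of the enzymes and anchors of the pathway, Pld6, the mitochondrial nuclease known as Zucchini, had 6.39 and 3.96 CPM and was called higher in A, a call that was lost after GC centring (exact binomial test, Benjamini-Hochberg adjusted p = 0.0932). Henmt1, which methylates the 3′ ends of piRNAs, had 8 counts in A and 25 in B, 0.287 and 0.824 CPM, and lay below the level tested. Asz1, a mitochondrial anchor of the germ granule, had 2 counts and 1 count. Over the group, 5 of 13 tested genes were higher in B, 5 higher in A and 3 not called, with a median log2 ratio of 0.04. Of all genes tested, 38.4% were called in each direction, so these counts lie near that share. The 5 higher in A include Piwil1, and with no filter on low counts the split was 6 in B to 4 in A. Of 11 other genes listed with the pathway, 10 were detected, 6 were higher in B, 2 higher in A and 3 not called, with a median log2 ratio of 0.33. That list was broad, and Tdrd3 and Dnmt3l are among its 6 genes higher in B. The highest of the 11 were Dnmt3l, the cofactor of germline DNA methylation, with 363 and 557 CPM, Morc1 with 211 and 248 CPM, and the Tudor gene Rnf17 with 52.7 and 99.1 CPM.

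In the axis and synaptonemal complex group, all 10 genes were detected, and their median level per length of 8.71 RPKM stood beside 1.10 RPKM for the piRNA genes. The meiotic cohesin subunits moved apart between the libraries. Rec8 (chr14:55618037-55625395, plus strand), the meiotic kleisin that closes the cohesin ring, had 1507 counts in A and 312 in B, 54.1 CPM (95% interval 51.4 to 56.9) against 10.3 CPM (9.18 to 11.5). Library A was thus 4.93-fold higher (4.36 to 5.58; exact binomial test, Benjamini-Hochberg adjusted p = 2.1e-191), a log2 ratio of -2.25 that 0.597% of all tested genes matched or passed in size. GC-centred it was -1.85. The intervals of A and B did not overlap, and the mean of 32.2 ± 31.0 CPM (SD, n = 2) describes neither library.

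The 2 other meiotic cohesin genes were higher in B. Stag3 (chr5:138280240-138312393, plus strand), whose window is printed above, had 38.2 CPM in A and 63.1 CPM in B, 1.76-fold more in B (1.64 to 1.90). Its log2 ratio was 0.81, and 0.76 after GC centring. Smc1b, the meiotic SMC subunit, had 21.8 and 31.3 CPM, and its log2 ratio of 0.61 went to 0.08 after GC centring, where it was not called. REC8, STAG3 and SMC1B can join in one cohesin complex, and their genes did not move together: Rec8 was higher in A, Stag3 higher in B.

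Among the synaptonemal complex genes, Syce2, a protein of the central element, had 44.8 and 32.6 CPM and was called higher in A. Sycp3, the main protein of the lateral element, had 27.8 and 23.6 CPM and was not called. It was called higher in A with library totals (exact binomial test, Benjamini-Hochberg adjusted p = 0.00278) and after GC centring, where its log2 ratio went from -0.14 to -0.66. More than 50% of its exon bases, 660 of them or 52.2%, overlap the opposite-strand gene Chpt1 with 407 and 372 counts, and whether the counting used strand is not given in the sources used here. Syce1, also of the central element, had 16.8 and 17.7 CPM and was not called, except higher in B with DESeq2 size factors (exact binomial test, Benjamini-Hochberg adjusted p = 0.0419). Sycp1, the filament that joins both axes, had 2.37 CPM in A and 6.001 CPM in B, 2.70-fold more in B (2.03 to 3.64; exact binomial test, Benjamini-Hochberg adjusted p = 7.7e-13). After GC centring its log2 ratio went from 1.26 to 0.74, and its transcript has the low GC content of 34.6%. That transcript also matches a gene without a row in the counts, at 92.54% identity over 2560 bases. The count of Sycp1 is therefore uncertain. Sycp2, the partner of SYCP3 in the lateral element, had 33 and 50 counts and was not called. Per length, Sycp3 had 22.0 RPKM, Sycp1 1.22 RPKM and Sycp2 0.248 RPKM on average. The level of Sycp3 is uncertain for its overlap with Chpt1, and that of Sycp1 for its match.

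Hormad1 and Hormad2, HORMA-domain proteins that mark the unsynapsed axis, had 6.46 and 8.05 CPM and 2.51 and 4.29 CPM. Both were called higher in B. Hormad1 shares 92.75% identity over 1049 bases with the pseudogene Gm15529, which had 71 and 90 counts, so its count is uncertain; after GC centring its log2 ratio turned from 0.38 to -0.14 and was no longer called. Over the group, 5 genes were higher in B, 2 higher in A and 3 not called. Of all genes tested, 38.4% were called in each direction. After GC centring, 3 were higher in B (30%, beside 37.1% of all genes tested) and 3 higher in A (30%, beside 35.6%). The median log2 ratio went from 0.40 to -0.01. Of 12 other axis, synapsis and cohesin genes, 8 were detected; 9 were tested, with 6 higher in B, 1 higher in A and 2 not called. They were led by the cohesin genes of all dividing cells, Rad21 with 513 and 758 CPM, Smc3 with 228 and 363 CPM and Smc1a with 192 and 225 CPM.

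Recombination genes were uneven. Spo11, the enzyme that makes the programmed breaks, had 2 counts in A and 0 in B, and 3 counts, the limit that a count of 0 allows, would be 0.0989 CPM in B. Dmc1, the recombinase that pairs homologs, had 16.4 and 9.69 CPM and was called higher in A, 1.59-fold (1.37 to 1.85). Mei4, a cofactor of break formation, had 4.56 and 7.02 CPM and was called higher in B, a call that was lost after GC centring (log2 ratio 0.66, then 0.13; exact binomial test, Benjamini-Hochberg adjusted p = 0.291). The gene of the first step was thus not detectable above a few counts at this depth, while Dmc1 had 458 and 294 counts. Of 14 other recombination genes, 10 were detected. Of 12 tested, 5 were higher in B, 4 higher in A and 3 not called, beside 38.4% of all genes in each direction. Among them Hsf2bp had 89.0 and 104 CPM, and Mlh3 34.3 and 50.9 CPM.

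The germ cell regulators were the group in which every tested gene had a lower level in B. Of 8 genes, 7 were tested, all 7 had a log2 ratio below 0, 6 were called higher in A (38.4% of all genes tested were) and Dazl was not called. Of all genes tested, 50.8% had a log2 ratio below 0. The median log2 ratio was -0.38, beside -0.01 over all tested genes. All 7 also lay below 0 with library totals, with DESeq2 size factors (1 in A and in B) and after GC centring. Summed over the group, A held 360.5 CPM and B 174.2 CPM, and Stra8 and Kit made up most of it. The other 6 regulators summed to 92.6 CPM in A and 69.7 CPM in B. Nanos2, which keeps male germ stem cells, had 0 counts in A and 1 in B, and its printed window holds no CpG. An antisense gene overlaps 49.0% of its exon bases.

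Stra8 (chr6:34920163-34939344, plus strand), the retinoic acid target that opens the meiotic programme, had 3942 counts in A and 1236 in B, 141 CPM (137 to 146) against 40.8 CPM (38.5 to 43.1). Library A was 3.25-fold higher (3.05 to 3.47), and 2.24% of all tested genes had as large a ratio. Kit (chr5:75574916-75656722, plus strand), the receptor of stem cell factor on migrating germ cells, had 127 CPM (122 to 131) in A and 63.7 CPM (60.9 to 66.6) in B, 1.86-fold more in A (1.76 to 1.97). Of the 5 mast and blood cell markers, Cpa3 and Mcpt4 had 0 counts in both libraries. Gata1 had 2.51 CPM in A and 2.34 CPM in B, and Ptprc had 1 and 5 counts. The part of such cells in the Kit level was not tested. Nanos3, an RNA-binding protein that keeps primordial germ cells alive, had 9.97 and 4.62 CPM, 2.03-fold more in A (1.65 to 2.50). Its log2 ratio of -0.95 lay just short of a 2-fold difference on that scale, as did that of Piwil2 at 0.99, while Tdrd7 at -1.07 lay just past it.

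Meioc, a meiotic factor that works with the RNA helicase YTHDC2, had 32.1 and 24.2 CPM. Sohlh2, a bHLH factor of early germ cells, had 20.99 and 17.1 CPM, a small difference whose call was lost with DESeq2 size factors (exact binomial test, Benjamini-Hochberg adjusted p = 0.0649). Prdm1, also called BLIMP1 and a founder factor of germ cells, had 15.2 and 10.8 CPM. Dazl, an RNA-binding protein of germ cells, had 14.3 and 12.9 CPM and was not called except after GC centring, where its log2 ratio was -0.58 (adjusted p = 4.57e-08, exact binomial test with Benjamini-Hochberg adjustment). Before centring Dazl thus sat nearest to equal of the tested regulators, and Stra8 lay farthest in either version. Of 16 other regulators, 10 were detected. Of 11 tested, 3 were higher in B, 7 higher in A and 1 not called, beside 38.4% of all genes in each direction. Tex19.1 had the highest mean CPM, with 72.2 and 117 CPM, followed by Tfap2c with 76.9 and 33.5 CPM and Dmrt1 with 61.0 and 47.9 CPM, and Lhx8 had 0 counts in both. Of the 5 fibroblast markers, the 3 detected were called higher in A, while Col1a2 had 2 and 7 counts and Col3a1 1 and 5. That list summed to 45.1 CPM in A and 27.1 CPM in B. Of the ES cell markers, Pou5f1, Nanog and Sox2 were called higher in A, and Zfp42 and Esrrb higher in B. Of the Sertoli and Leydig markers Rhox5 was called higher in A, Wt1 higher in B, and Star was not called. The part of these markers in the regulators' difference was not tested.

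Among the 4 testis paralogs and surface proteins, Rpl10l (chr12:66283379-66284401, minus strand), the retrogene of the ribosomal protein gene Rpl10, had 199.7 CPM in A and 172 CPM in B, a mean of 186 ± 19.2 CPM (SD, n = 2). It was the highest of all 41 genes and by CPM lay above 91.7% of detected genes. It was called higher in A, although by only 1.09-fold (1.04 to 1.13). Its only close copy was the pseudogene Gm14460, with 97.34% identity over 639 bases and 16 counts in each library. The other 3 genes were near the detection level. Taf7l, the X-linked paralog of a general transcription factor, had 3.30 and 4.62 CPM and was called higher in B, but not after GC centring, where its log2 ratio went from 0.51 to 0.16 (exact binomial test, Benjamini-Hochberg adjusted p = 0.306). Tex101, a surface protein of germ cells, had 2.33 and 1.32 CPM, and Slc25a31, a testis ATP/ADP carrier, had 1.58 and 1.88 CPM and was not called.

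Paralogs of all cells give a scale for 7 of the genes, as the plot of paired levels shows. Per length, Rpl10l had 195 and 169 RPKM against 74.9 and 70.1 RPKM for Rpl10, 2.61-fold and 2.404-fold higher. This comparison is uncertain, since Rpl10 has 11 genes that match it closely, 7 of them with a row and 823 and 536 counts in all. Rpl10l and Rpl10 themselves matched at 84.25% identity over 470 bases. Stag3 came close to its paralogs, at 0.859 and 0.892 of the level of Stag1 and 0.929 and 0.820 of that of Stag2. In the other pairs the germline gene was lower.

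**Figure D4:**
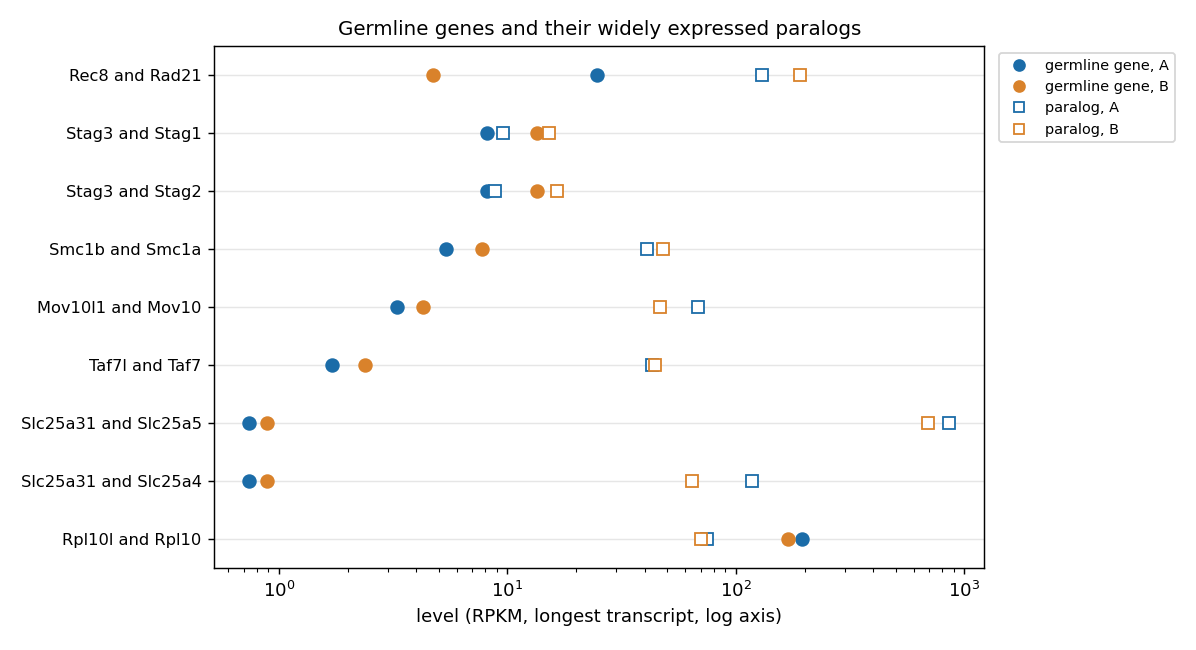
Level per length (RPKM, log axis) of 7 germline genes as filled circles and of their widely expressed paralogs as open squares, in libraries A and B. Rpl10l lies above Rpl10 and Stag3 beside Stag1 and Stag2, while Slc25a31 lies far below Slc25a5.

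Rad21 was 5.24-fold higher than Rec8 in A and 40.7-fold higher in B, the pair whose ratio changed most between the libraries. Smc1a was 7.59-fold and 6.19-fold higher than Smc1b. Mov10 was 20.8-fold and 10.8-fold higher than Mov10l1, and Taf7 25.2-fold and 18.6-fold higher than Taf7l. Slc25a5 was 1157-fold and 787-fold higher than Slc25a31, and Slc25a4 159-fold and 73.0-fold higher.

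The genes listed as repressors of germline promoters had a median level per length of 26.0 RPKM, beside 2.95 RPKM for the germline genes. Of these 20 genes, 19 were detected. The remaining gene, Zbtb16, had 4 counts in A and 11 in B and also stood in the list of other germ cell regulators. Uhrf1, which guides maintenance methylation, had 365 and 489 CPM, the maintenance methyltransferase gene Dnmt1 317 and 412 CPM, and the de novo methyltransferase gene Dnmt3b 222 and 397 CPM. Of 19 tested, 16 were higher in B (38.4% of all genes were), 2 higher in A and 1, Max, was not called. These calls and the log2 ratios of the repressors are without GC centring. How many of the calls would remain after it was not tested. Of the PRC1.6 genes named after their values were seen, Mga had 91.2 and 290 CPM, E2f6 20.6 and 26.0 CPM, Pcgf6 68.5 and 88.4 CPM and L3mbtl2 265 and 316 CPM. Mga thus differed most of these 4, with a log2 ratio of 1.75. The 2 higher in A were Ring1, with 10.2 and 6.99 CPM, and Yaf2, with 14.9 and 9.10 CPM. Both were listed as PRC1.6 genes too, as were Max and, called higher in B, Rnf2, Rybp, Cbx3 and Tfdp1. The PRC1.6 genes thus did not all go the same way. How repressor levels bear on the germline genes was not tested, and 2 libraries allow no correlation across samples.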

How the data were processed

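For each library the authors deposited raw counts of reads by Ensembl gene identifier, whole numbers without normalization. The submitters' processing notes name the mm10 build, featureCounts 1.4.5-p1 and STAR 2.4.2a, without their roles. Per the labels' protocols, RNA was taken up in Trizol and libraries were made with a TruSeq kit, with a reverse-stranded protocol. Which annotation was counted, whether strand was used and how reads with several matches were treated is not given in the sources used here.

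Identifiers were matched to GENCODE M21 on GRCm38 (42548 of 43629). CPM was computed from library totals of 27872396 (A) and 30327146 (B), RPKM from the longest transcript, with exact 95% Poisson intervals. For a count of 0, the one-sided limit of 3 counts is used in place of the two-sided interval, 0.108 CPM in A and 0.0989 CPM in B.

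Counts of A and B were compared by a binomial test, exact and two-sided, with TMM-scaled sizes (edgeR 4.0.16, R 4.3.3). It covered the 14583 genes that reached 1 CPM in A or B, with Benjamini-Hochberg adjustment and a threshold of 0.05. It compares libraries, not conditions; edgeR's quasi-likelihood test could not be fitted between 2 single libraries. Log2 ratios used a pseudocount of 0.5 CPM, which understates those of low genes. The test was run on simulated Poisson counts with no added variance between libraries, which is the model it assumes. That run checks the working of the test and not its rate of false calls in these data. Copies were matches of transcripts (BLAST+ 2.17.0) at 90% identity over 200 bases. Alternatives were other scalings (DESeq2 1.42.0 size factors, library totals, and TMM on all genes, which was added after the data were seen), filters, pseudocounts, Fisher's exact test and removal of GC trends. The DESeq2 size factors were 1 in A and 1 in B, so that scaling took the library sizes as equal.

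The genes and lists were chosen with earlier results of these data known. Every one of the 41 genes is named. Those that reached 10 CPM in A and B, with a 2-fold difference, or with 0 counts in a library have their value in each library. Of every other list, the 3 detected genes of highest mean CPM and those at 0 in both are named. Of the genes this rule takes, 1 outside the 41 is not reported here. Other genes were chosen after their values were seen. Ddx39a, Ccdc79, Ankrd31, Spata22 and Top6bl were not matched.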

Additional observations from a re-analysis of the deposited data

How the results depend on the processing

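With 5 CPM in both libraries as the level that counts, 20 of the 41 genes reached it, among them 5 piRNA genes, 1 recombination gene and 1 of the testis paralogs and surface proteins, of which 2 reached 2 CPM. Median levels per length were 2.95 RPKM over all 41 genes, 1.10 for the piRNA genes, 8.71 for the axis genes, 2.17 for recombination, 7.10 for regulators and 1.77 for testis paralogs and surface proteins. Over the detected genes alone, the medians were 13.3 CPM for all, 5.85 for piRNA, 9.43 for recombination and 19.05 for regulators. Over all genes of a group, the medians were 4.93 CPM for piRNA, 21.5 for axis and 2.89 for testis paralogs and surface proteins, and with either library left out 3.69 to 4.75 CPM for piRNA, 14.0 to 19.3 for axis, and 2.82 to 3.25. After GC centring, the calls higher in B went from 12 to 7 over the 41 genes and from 5 to 3 in the axis group, while over all genes tested they went from 5602 to 5390. With a filter at 5 CPM, 3 piRNA genes in place of 5 were higher in A, since fewer were tested. With a 2-fold difference asked for as well, 2 genes were higher in B and 3 in A, with 1 in each direction among the piRNA genes and among the axis genes, and 1 regulator higher in A. The log2 ratio of Mael, which was not called at 0.04, was -0.050 with library totals and -0.20 after GC centring, where it was called higher in A. The cause of these shifts was not tested. Of 126 alternative ratios of 21 genes, 117 kept direction and call, 3 lost the call (Ddx4 and Smc1b after GC centring, Sohlh2 with DESeq2 size factors), 4 gained one (Sycp3 with library totals and after GC centring, Syce1 with DESeq2 size factors, Dazl after GC centring) and 2, both of Mael, turned. The 126 include ratios with other pseudocounts, which could change neither direction nor call. The 117 therefore overstate how stable the ratios were. Over the whole table, library totals gave 4851 genes higher in B and 6431 in A, and moved the median log2 ratio to -0.10. No paired analysis was possible because the series has 1 group. With 2 libraries, the error of a level rests on 1 difference, and levels of a few counts cannot be ordered.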
